A study of Rattus norvegicus with 8 samples.

Results

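The genes described here encode the proteins of the cytosolic ribosome, measured in cultured rat fetal testes exposed to MEHP. Members were all array probes, control spots left out, whose gene name begins with Rpl or Rps and a number, or is Rplp0, Rplp1 or Rplp2. S6 kinases (names beginning with Rps6k) were excluded, and Gnb2l1, the older symbol of Rack1, was added. The rule found 111 probes for 75 genes among 41012 probes on the array. They cover 42 large subunit genes with 65 probes, 30 small subunit genes with 43 probes, Gnb2l1 with 1 probe, and the paralogs Rpl10l and Rpl3l with 1 probe each. No probe carried the name Rplp0.

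Mono-(2-ethylhexyl) phthalate (MEHP) is the active metabolite of a plasticizer. Testes of Sprague-Dawley fetuses, taken early in the third week of gestation, were explanted whole and kept for 72 h in medium with MEHP at 1 µM (1 testis) or 10 µM (3 testes), and DMSO was present in every condition as the vehicle. RNA of each treated testis was hybridized against 1 pool of RNA from 3 vehicle-treated testes on 2 arrays with the dyes exchanged, giving 8 arrays. The vehicle pool counts as 1 control sample, so the tests leave out the spread between control testes. Values are log2 ratios of MEHP over the vehicle pool, and negative values mean less signal in the MEHP testis. The labels name the same dye for MEHP on all arrays while the methods describe an exchange, so MEHP was read as Cy3 on the first array of each pair and as Cy5 on the repeat. This direction is likely but not settled. Over the 3680 probes well above background on all arrays, the raw red over green ratios of the 2 arrays correlated at -0.52 for the 1 µM testis and at -0.75, -0.50 and -0.82 for testes 1, 2 and 3 at 10 µM. Over all probes tested at each dose the values were 0.16 for the 1 µM testis, the 1 pair above 0, and -0.23, -0.53 and -0.40 at 10 µM. After the signs were turned, the members of a pair correlated at 0.24, 0.68, 0.49 and 0.85 in the same order.

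Testis 2 at 10 µM stood apart before any comparison. Its MEHP channel was well above background for 0.249% of spots on the first array and 1.54% on the repeat, against 7.80% to 29.8% on the other 6 arrays. Of the 111 member probes, 14 and 66 were above background in that channel, against 93 to 101 on the other arrays. Where the MEHP signal of testis 2 is near background, its ratio is only a limit, and results are given below with and without it. The tissue markers were seen in part. In the vehicle channel, 4 of 6 Leydig cell markers were above background on at least 4 of the 8 arrays, with Insl3 on 8, Cyp11a1 on 2 and Lhcgr on none, as were 5 of 6 Sertoli cell markers, with Amh, Sox9 and Inha on 8, Gata4 on 4 and Wt1 on 2. Of the germ cell markers Pou5f1 and Kit were above it on none and Ddx4 on 2. Each sample is a whole organ, so fewer cells of a type and less RNA per cell cannot be told apart.

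The ribosome is built from a large and a small subunit, each a core of ribosomal RNA covered with proteins that are mostly needed in equal numbers. Cells therefore make these proteins together, and most of their mRNAs begin with a terminal oligopyrimidine tract (TOP), a C followed by a run of C and T, through which the mTOR pathway adjusts their translation to nutrients and growth signals. Rack1 sits on the small subunit near the mRNA exit and docks kinases and other signaling proteins. In the fetal testis, Sertoli and Leydig cells grow and secrete hormones, which calls for a high rate of protein synthesis.

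The sequences below show which of the named genes have such a run of letters at the annotated start. A gene without it there may still carry a tract. Each line gives 30 bases, 10 before and 20 from the start onward, read from RefSeq promoter windows of the rat assembly GRCr8. Capitals mark a run of at least 5 pyrimidines that begins with C between positions -2 and 3 relative to the start. The first 5 genes were lower at 10 µM on at least 1 probe, Rpl37 had a probe that was higher, and the last 4 were near 0 or uneven.
Gnb2l1 (Rack1), chr10:33670540-33670569, plus strand: ctctccgagtatttccggttccggcggagg
Rpl3, chr7:113507971-113508000, minus strand: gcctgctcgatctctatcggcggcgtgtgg
Rpl5, chr14:1995206-1995235, minus strand: ctttcccacgtcgcttgcgtcctggaggtg
Rpl10a, chr20:6390523-6390552, plus strand: cttctgccttCTTTTCCggttcccgcagcc
Rps14, chr18:56498250-56498279, plus strand: ccgtctctCTCTTTCCggtggaggagtctg
Rpl37, chr2:55942935-55942964, plus strand: ggcgtactttCTCTTCCggtctctttggcc
Rpl26, chr10:54109682-54109711, plus strand: gtcaacttacagaaccggaagtcgcatgta
Rpl35, chr3:43165902-43165931, minus strand: cttcctctttCTCTCgaaccgggcggcctc
Rplp1, chr8:71290853-71290882, minus strand: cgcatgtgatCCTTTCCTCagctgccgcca
Rps15, chr7:10068096-10068125, minus strand: acaccgcttCCTTTTCCCagcagccgccaa

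Of the 75 member genes, 60 had a window in the table. The pyrimidine run was present in 34 of them (56.7%), with 20 of 35 large subunit and 14 of 23 small subunit genes, against 8.57% of all 33469 windows. The letters CTTTCC or CTTTTC on the sense strand within 10 bases of the start, which overlap with the run, were found in 19 members (31.7%) and in 1.34% of all windows. At 10 µM the median of the testis means was -0.64 for 33 genes with the run, ranging from -2.37 to 0.62, and -0.95 for 25 genes without it, ranging from -2.59 to 0.37. In testis 1 the order was the other way, at -0.30 with and -0.21 without the run, as it was at 1 µM, at -0.12 and -0.08. A missing run says only that these letters do not lie at the annotated start.

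At 10 µM, most ribosomal protein genes had less signal in the MEHP testis than in the vehicle pool, and the size differed widely between the 3 testes. With 1 probe per gene, the brightest, testes 1, 2 and 3 had medians of -0.32 (70 genes), -1.80 (72 genes) and -0.70 (72 genes) over the genes, a mean of -0.94 ± 0.77 (SD, n = 3). The median over all tested probes was 0.09, -1.13 and -0.20 in the same testes. Relative to that median the members lay at -0.41, -0.67 and -0.50. By array this gap was uneven. On the first and repeat arrays of testis 1 the members had medians of -0.27 and -0.35, beside -0.20 and 0.40 for all probes. In testis 3 they were -0.77 and -0.63, beside -0.72 and 0.16. In testis 2 they were -2.32 and -0.56, beside -1.70 and -0.67, so the repeat went the other way. The gap of testes 1 and 3 thus lay mostly on the repeat arrays. In testis 1, 55 of 70 member genes were below 0, against 45.2% of all probes, and in testis 3, 55 of 72 against 57.0%. In testis 2, where 91.4% of all probes were below 0, 66 of 72 members were. The shift held in testes 1 and 3 when background and dye balance were handled anew, but it turned in testis 2: after normexp correction and loess the members lay at -0.34, 0.13 and -0.23 relative to all probes, and after loess without background correction at -0.41, 0.06 and -0.14. With the dye labels taken as written the shift turned in testes 1 and 3 and kept its sign in testis 2, at 0.22, -0.33 and 0.17, and it was 0.19 in the 1 µM testis.

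**Figure D1:**
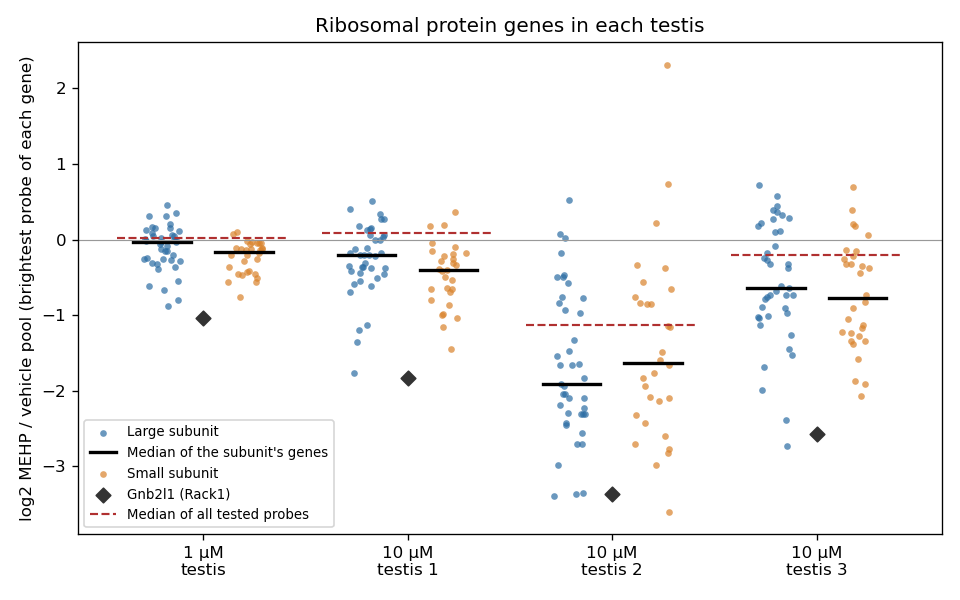
Log2 ratio of MEHP over the vehicle pool (vertical axis) for the brightest probe of each large subunit (blue) and small subunit (orange) gene in each testis; black bars are subunit medians, diamonds are Gnb2l1, and dashed lines are the median of all tested probes. Member medians lie below the dashed line in each of the 4 testes, and testis 2 at 10 µM is lowest, with a member median of -1.80.

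**Figure D2:**
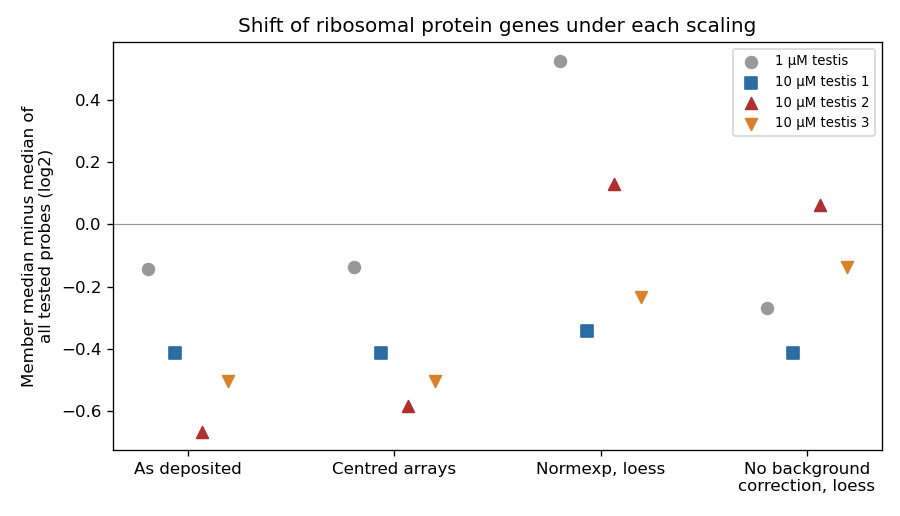
Median of the member genes minus the median of all tested probes (log2, vertical axis) for each testis under 4 ways to scale the arrays, all with the dyes read as exchanged. With deposited ratios or centered arrays all 4 testes are below 0, while testis 2 moves to 0.13 and 0.06 and the 1 µM testis to 0.52 and -0.27 with normexp and with no background correction before loess.

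Single probes were tested with limma against 0 over all 10021 probes that exceeded background in either channel on 3 or more of the 6 arrays, with Benjamini-Hochberg adjustment. Of the 106 member probes tested (73 genes), 6 were lower in MEHP and 1 was higher at an adjusted p under 0.05. Among all tested probes, 1.16% were lower and 0.259% higher, and the members' shares were 5.66% and 0.943%. All 7 calls were lost with slide as a block, with testis as a random block over arrays, with loess after normexp or no background correction, with no filter on dim probes, with the first hybridization only, with the labels taken as written, and without testis 1 or testis 3. At an unadjusted p under 0.05 the count was 44 of 106 members, against 17.5% of all probes. The 5 probes not tested, with 1 each of Rpl28, Rpl37a and Rpl3l among them, were above background on too few arrays. The standard errors of the members lay between 0.55 and 0.69. They were nearly alike because limma drew each variance toward a value shared by all probes, with a prior of 60.2 degrees of freedom. The adjusted p of a gene therefore does not measure the SD of its own 3 testes. Rpl4, for one, had an SD of 1.61 and a standard error of 0.57. Without testis 2, 20 of 104 members were lower and 1 higher, against 9.53% and 7.12% of all probes, and all 7 probes called with 3 testes were among the 21. Probes that passed without testis 2 alone, named here after their values were seen, included Rpl7 at -1.56, Rps4x at -1.51 and Rpl9 at -1.41. Centering each array on its median kept the same 7 member probes, while the split over all probes went from 26 higher and 116 lower to 99 higher and 108 lower.

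The same ratios were also counted by direction alone, which is a recount and not separate evidence. Of the 86 tested member probes with a value in all 6 hybridizations at 10 µM, 50 were below 0 in every one, or 58.1%, against 19.3% of all probes. Above 0 in all 6 were 2 members, 1 probe of Rpl37 and 1 of Rpl26, against 0.936% of all probes. The share of all tested probes below 0 differed by array, from 34.9% on the repeat of testis 1 to 92.2% on the first array of testis 2. The members and all probes were not matched for brightness.

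Gnb2l1 had the lowest mean of the member genes with all 3 testes, and without testis 2 Rpl3 was lower, at -2.25 against -2.20. The Gnb2l1 ratios on the 2 arrays were -1.77 and -1.89 in testis 1, -3.37 and -3.36 in testis 2, and -2.33 and -2.80 in testis 3. The 3 testes lay on the same side of 0, and the spread between them was larger than that between arrays of a pair. The mean was -2.59 ± 0.77 (SD, n = 3) with an adjusted p of 0.0134 by limma. In the MEHP channel the gene exceeded background on 4 arrays, with neither array of testis 2 among them, so that the value of testis 2 is a limit and the mean and SD rest on it. Without that testis the mean was -2.20, 4.59-fold lower, with an adjusted p of 0.00895. Normexp correction and loess brought the mean to -1.16 with an adjusted p of 0.288.

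Among large subunit genes, Rpl3, Rpl5 and Rpl10a fell, and Rpl4 came next. Rpl3, which reaches toward the peptidyl transferase center, had ratios of -2.03 and -1.51 in testis 1, -2.32 and -2.29 in testis 2, and -2.76 and -2.69 in testis 3. The mean was -2.27 ± 0.48, the smallest SD of the called genes, with an adjusted p of 0.0252. The MEHP signal was above background on 3 of 6 arrays, but on neither array of testis 2 nor the first of testis 3. Ratios on those arrays are limits, so the small SD does not show that the testes were alike. The mean was -2.25 without testis 2.

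Rpl5 binds 5S rRNA and, when free, restrains the p53 inhibitor Mdm2. It has 3 probes. The first gave -1.47, -2.92 and -2.83 in testes 1 to 3 (mean -2.40 ± 0.81, adjusted p = 0.022), and another gave -0.77, -3.57 and -1.96 (mean -2.10 ± 1.40, adjusted p = 0.0437). Neither of these probes had an MEHP signal above background in testis 2, so its values are limits. Without testis 2 their means were -2.15 and -1.37. The brightest probe gave -0.37, -2.43 and -1.03 and did not pass (mean -1.28 ± 1.05, adjusted p = 0.204).

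Rpl10a, the protein of the L1 stalk where spent tRNA leaves, gave -1.19, -3.39 and -1.69, all below 0 (mean -2.09 ± 1.15, adjusted p = 0.0432). Rpl4, which lines the exit tunnel of the nascent chain, gave -0.21, -3.36 and -2.39, so that testis 1 was near 0 while testes 2 and 3 were low (mean -1.99 ± 1.61, adjusted p = 0.0527). Neither Rpl10a nor Rpl4 had an MEHP signal above background in testis 2, so those values are limits. Without testis 2 the means were -1.44 for Rpl10a and -1.30 for Rpl4. At the other end of the large subunit, Rpl13a, Rpl35 and Rpl26 had means of 0.17 ± 0.56, 0.36 ± 0.34 and 0.37 ± 0.21, and none passed the test. Rpl26 lies near the exit of the tunnel, and on its brightest probe it was above 0 on all 6 arrays, between 0.09 and 0.58.

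**Figure D3:**
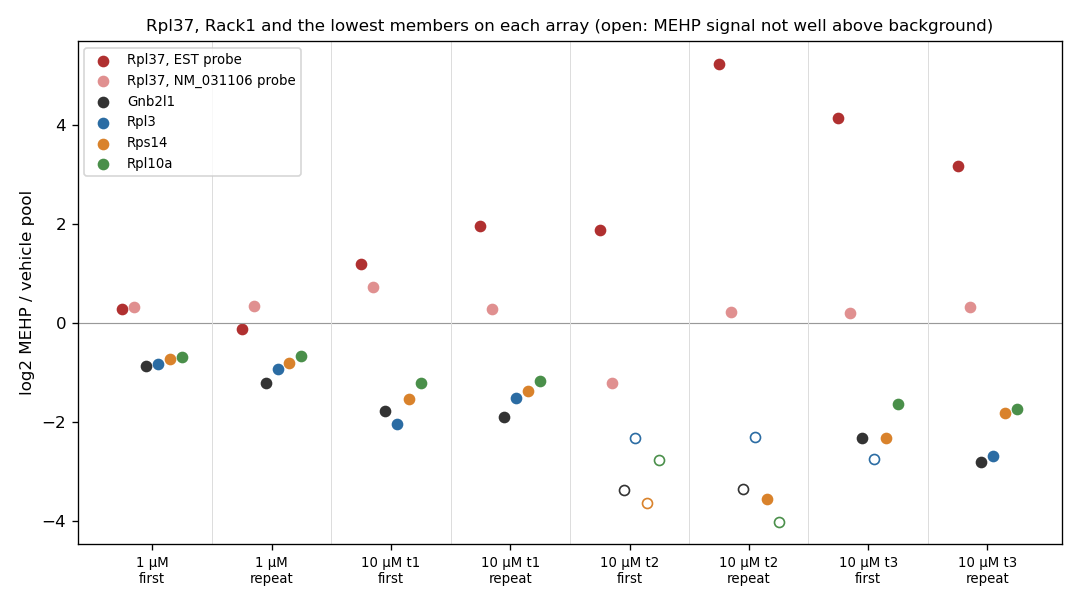
Log2 ratio of MEHP over the vehicle pool (vertical axis) on each of the 8 arrays for both Rpl37 probes, Gnb2l1, Rpl3, Rps14 and Rpl10a; open points have an MEHP signal not well above background. The Rpl37 EST probe is above 1 on all 6 arrays at 10 µM, Gnb2l1, Rpl3, Rps14 and Rpl10a are below -1 on all 6, and most of the open points belong to testis 2.

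In the small subunit 1 gene fell. Rps14, a protein of the platform near the decoding site, had ratios of -1.53 and -1.37 in testis 1, -3.64 and -3.56 in testis 2, and -2.32 and -1.82 in testis 3. On the first array of testis 2 the MEHP signal was not above background, so -3.64 is a limit. The Rps14 mean of -2.37 ± 1.11 had an adjusted p of 0.0241 by limma and became -1.76 without testis 2. The highest small subunit genes were Rps6, the substrate of the S6 kinases, with a mean of 0.26 ± 0.44, and Rps15 with 0.62 ± 1.52. Rps6 lost 2 of its 6 hybridizations to outlier flags. On its brightest probe, Rps15 rests on a single array of testis 2, where the ratio was 4.71 while the other array of that testis gave -0.09.

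With all 3 testes, the subunits did not part from each other beyond the spread between testes, which rests on testis 2. The median of the large subunit genes minus that of the small subunit genes came to 0.20, -0.29 and 0.13 in testes 1, 2 and 3, a mean of 0.02 ± 0.26 (SD, n = 3). Without testis 2, over probes with a value in both other testes, the mean was 0.20 ± 0.0076 (SD, n = 2). At 1 µM the difference was 0.12 in the single testis. Small subunit genes were more often below 0 in testes 1 and 3, with 26 of 29 and 25 of 30, against 28 of 40 and 29 of 41 large subunit genes. In testis 2 the counts were 27 of 30 and 38 of 41.

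Rplp1 and Rplp2 encode the acidic proteins of the stalk, which recruits translation factors. Rplp1 gave 0.18, -0.57 and 0.22, with testis 2 alone below 0 (mean -0.06 ± 0.44, adjusted p = 0.975). Rplp2 gave 0.06, -2.29 and -0.68 (mean -0.97 ± 1.20, adjusted p = 0.365), and its MEHP signal was not above background in testis 2. Of the paralogs with a tissue-restricted role, Rpl10l, which replaces Rpl10 in male germ cells at meiosis, had an MEHP signal above background on 2 of 6 arrays and a vehicle signal on 4, with a mean of -1.41 ± 0.53 (adjusted p = 0.15). Without testis 2 its mean was -1.55 and the adjusted p 0.0209. Rpl3l, known from striated muscle, was above background on none of the 6 arrays in either channel.

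Rpl37, a zinc-binding protein of the large subunit, stood apart from the rest on 1 of its 2 probes. The probe designed on the expressed sequence tag BQ191785 gave 1.19 and 1.96 in testis 1, 1.89 and 5.24 in testis 2, and 4.16 and 3.18 in testis 3. All 6 arrays were high, and testis 1 was the lowest. Averaged over testes the ratio was 2.94 ± 1.18 (SD, n = 3), 7.65-fold higher, at an adjusted p of 0.00444 by limma. The call was lost with slide as a block (adjusted p = 0.0513), with testis as a random block (adjusted p = 0.057) and after normexp and loess (adjusted p = 0.288). It was also lost with loess and no background correction, with no filter on dim probes, with the first hybridization only and without testis 1 or testis 3, and the mean was -0.52, and not called, with the labels taken as written. Its MEHP signal was above background on all 6 arrays, testis 2 included, and the mean was 2.62 without testis 2. The probe designed on the reference transcript NM_031106 was the brighter of the pair and gave 0.72 and 0.28 in testis 1, -1.22 and 0.23 in testis 2, and 0.21 and 0.33 in testis 3. It was above 0 on 5 of 6 arrays and below on the first array of testis 2, with a mean of 0.10 ± 0.52 and an adjusted p of 0.959. In the RefSeq gene table used here that transcript now belongs to Rpl37l1, while the tag is not listed, so the array files do not settle which probe reports Rpl37. Ribosomal protein genes have many near-identical copies in the genome, and signal from a copy cannot be separated from that of the gene for any member. The mean of both Rpl37 probes was 1.52.

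**Figure D4:**
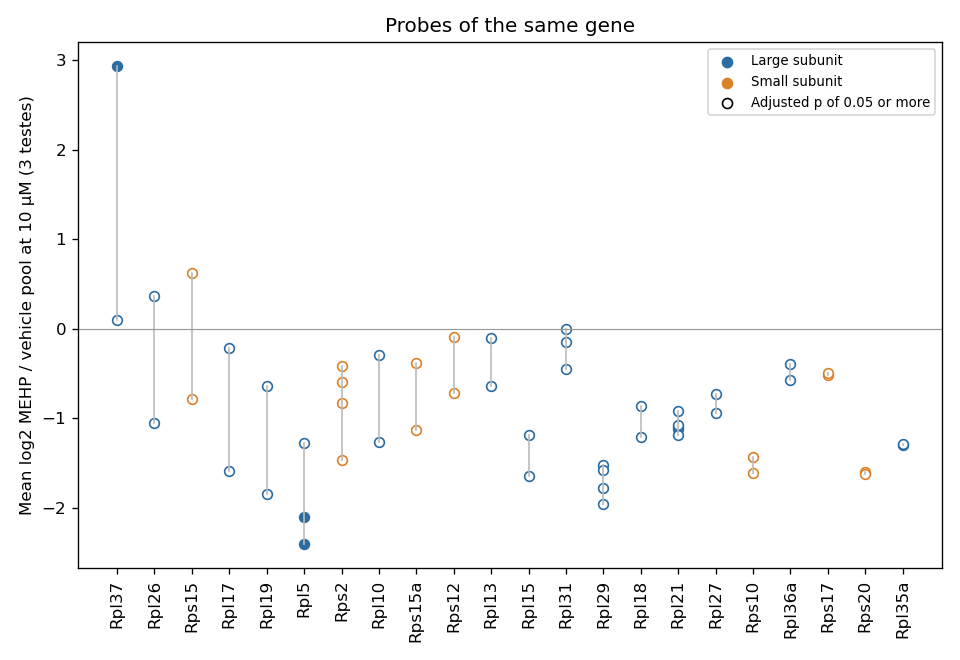
Mean log2 ratio of MEHP over the vehicle pool at 10 µM (vertical axis, 3 testes) of every tested probe of 22 of the 23 member genes with more than 1 tested probe (1 gene is not shown), joined by a line per gene and ordered by the distance between the highest and lowest probe. Filled points passed an adjusted p of 0.05; Rpl37 has the widest gap, 2.84, and Rpl35a the narrowest.

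Probes of the same gene often disagreed. Over the 23 genes with at least 2 tested probes, the median distance between the highest and the lowest mean was 0.53, and 8 genes exceeded 1. It was 2.84 for Rpl37, 1.42 for Rpl26 and 1.41 for Rps15. The means lay on opposite sides of 0 for 2 genes, Rpl26 (-1.05 and 0.37) and Rps15 (-0.78 and 0.62). For Rpl29, whose 4 probes lay between -1.96 and -1.53, and Rpl21, whose 5 probes lay between -1.18 and -0.92, the probes lay close together.

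Of the tested member probes, 12 had an MEHP signal well above background on both of its arrays, 56 on 1 and 38 on neither. The 12 were probes of Rpl13a, Rpl23, Rpl26, Rpl31, Rpl32, Rpl35, Rpl37 (both), Rplp1, Rps12, Rps15a and Rps23. Among all probes of the array, 73 met this condition. The median of the 12 was 0.16, -0.48 and 0.25 in testes 1, 2 and 3, higher in each testis than the members' median. Apart from the Rpl37 tag probe their means lay between -1.40 for Rps23, a protein of the decoding center, and 0.37 for Rpl26, and none passed the test. A probe that stays above background in a weak channel has by selection a higher ratio, so these values are a description.

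At 1 µM, with a single testis and no test, the ratios were smaller. The member median was -0.13 over 72 genes, beside 0.02 for all probes, and 54 of the 72 were below 0, against 48.5% of all probes. By array the member median was -0.13 on the first, beside -0.19 for all probes, and -0.14 on the repeat, beside 0.30. Of 97 member probes measured in both hybridizations, 7 were at least 1.5-fold lower in both (7.22%) and none was at least 1.5-fold higher, against 2.95% and 4.04% of all 13205 probes. The 7 probes belong to 6 genes. Gnb2l1 gave -0.86 and -1.21, Rpl3 -0.83 and -0.92, Rpl4 -0.61 and -0.97, Rps14 -0.73 and -0.80, and Rpl10a -0.69 and -0.66. The probes of Rpl5 gave -1.01 and -1.07, and -0.93 and -0.89. Both doses were set against the same vehicle pool, so low ratios at both may share its error. The Rpl37 tag probe gave 0.29 and -0.11 and the NM_031106 probe 0.34 and 0.35 at this dose. Large subunit genes had a median of -0.04 with 25 of 41 below 0, and small subunit genes a median of -0.16 with 28 of 30 below 0. The direction at 1 µM depends on the background correction: normexp and loess gave a member median of 0.50, with 13 probes at least 1.5-fold higher and none lower.

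The difference between the doses was fitted over the 4 testes. The 1 µM arm has 1 testis and no spread of its own, and was assumed to vary like the testes at 10 µM. No member passed the adjusted threshold, nor did any other probe, and at an unadjusted p under 0.05 there was 1 of 106 members, against 0.22% of all probes. This was the Rpl37 tag probe, with 10 µM above 1 µM by 2.85 ± 1.12 (SE, adjusted p = 0.9995). For Gnb2l1 the difference was -1.55 ± 1.11 (SE, adjusted p = 0.9995). Testis 3 and the 1 µM testis shared a slide, and within it the difference was 3.58 for the tag probe and -1.53 for Gnb2l1. Within this slide 83 of 106 member probes were lower at 10 µM, with a median difference of -0.48. The median over all tested probes was also lower in testis 3 (-0.20) than in the 1 µM testis (0.02). The share of all probes that were lower is not given here, so the count is not specific to the members. Testes 1 and 2 lay on the other slide.

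**Figure D5:**
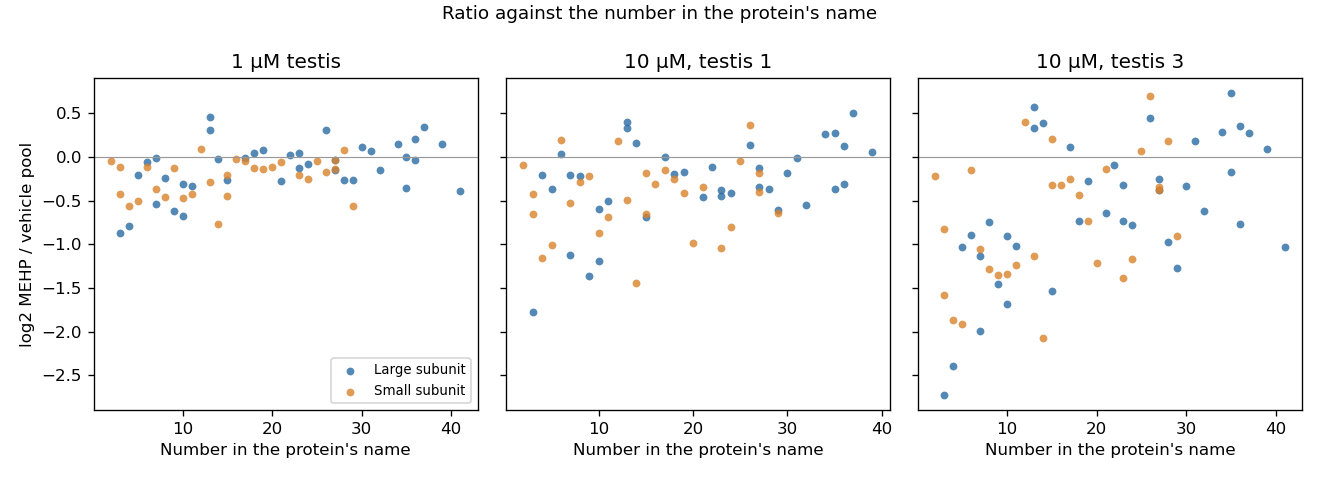
Log2 ratio of MEHP over the vehicle pool (vertical axis, brightest probe) against the number in the name of each large (blue) and small (orange) subunit protein, for the 1 µM testis and testes 1 and 3 at 10 µM. In testis 3 the median of large subunit genes numbered up to 20 is -0.96 and above 20 is -0.32, while in testis 1 the medians are -0.21 and -0.25.

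Ribosomal proteins were numbered roughly from the largest to the smallest, and the ratios were set against these numbers, a comparison chosen after the values were seen. In the large subunit, Spearman's rho between number and ratio was 0.41 at 1 µM and 0.36, 0.37 and 0.52 in testes 1, 2 and 3 at 10 µM, over 38 or 39 genes. In the small subunit it was 0.26, 0.13, 0.31 and 0.38 over 29 or 30 genes. In testis 3 the 18 large subunit genes numbered up to 20 had a median of -0.96 and the 21 above it -0.32. In testis 1 the medians were alike, at -0.21 and -0.25. Between the brightness of the probe and the ratio, rho was 0.34, 0.39, 0.61 and 0.41 for the large and 0.52, 0.34, 0.13 and 0.21 for the small subunit. All of these points share the same libraries and vehicle pool and are not independent. The part of mRNA length or probe brightness in the ratios was not tested.

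Other genes of the translation machinery are given from 6 lists at 10 µM. Of 57 tested probes of mitochondrial ribosomal proteins, none passed and the median gene mean was -0.86, beside -0.87 for the members and -0.42 for all probes. Among ribosomal proteins named outside the rule (Rpsa and Fau among them), 1 of 5 probes was lower and the median was -0.65, with 1 probe of Rpsa, a small subunit protein also known as the laminin receptor, at -2.07 ± 0.91 (adjusted p = 0.0431). Elongation factors and other mRNAs with a terminal oligopyrimidine tract had 1 of 31 probes lower and a median of -0.99. That probe was of Eef1a1, which brings aminoacyl-tRNA to the ribosome, at -0.83, -2.98 and -3.45 in testes 1 to 3 (adjusted p = 0.0241). Initiation factors had 2 of 54 probes lower, both of subunits of the scaffold factor eIF3, Eif3s6ip at -2.19 ± 0.76 (adjusted p = 0.0325) and Eif3s6 at -2.08 ± 0.49 (adjusted p = 0.0412), and a median of -0.94. Of 27 ribosome biogenesis probes and 10 probes of S6 kinases and the mTOR pathway none passed, with medians of -0.70 and -0.47. No probe of these 6 lists was higher at the adjusted threshold. Without testis 2, where 9.53% of all probes were lower and 7.12% higher, the numbers lower were 15 mitochondrial ribosomal, 2 outside the rule, 7 elongation, 10 initiation, 4 biogenesis and no mTOR pathway probes, and 1, 2 and 1 probes of the elongation, initiation and biogenesis lists were higher.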

How the data were processed

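Files of 8 Agilent 2-color whole rat genome arrays were used. The submitters' processing notes name Agilent Feature Extraction 9.1. The deposited log10 ratios of red over green had been background-subtracted and dye-normalized by the authors' scanner software, and the deposited intensity columns (mean, background and processed signals) were read for brightness, background flags and the alternatives. Ratios were multiplied to log2, turned so that MEHP is the numerator, cleared of outlier spots and control spots, and averaged over spots of a probe (43379 spots), then over the hybridizations of a testis. Of the tested members, 20 probes lacked at least 1 hybridization at 10 µM and kept the other, and Rpl41 and Rps28 lacked testis 1. No member was saturated. The authors' own lists of fold changes and p-values were not used.

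At 10 µM the 3 testis means were tested against 0 with limma 3.58.1 in R 4.3.3. The fit was run on simulated data with independent noise for each probe and no shift shared by an array. Recovery was required only at a spread below the observed one, so this check does not cover the conditions of testis 2. At 1 µM the rule was at least 1.5-fold in both hybridizations. Named are both Rpl37 probes and Gnb2l1, members past the adjusted threshold of 0.05, the 5 highest and lowest large or small subunit genes, those past the rule at 1 µM, the stalk, the paralogs, members detected in testis 2, and up to 2 genes per pathway list. Members, lists and tests were chosen with earlier results of these data known. The accession of 91 member probes was found in the RefSeq gene table. The number of arrays limits the precision. Probe sequences were not used here. Figures were drawn with matplotlib 3.10.9. Single values of some genes are not reported here.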

Additional observations from a re-analysis of the deposited data

Results flagged for a closer look

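Rpl30, a large subunit gene, had opposite directions at the 2 doses in every hybridization, which drew attention to it. It gave 0.12 on both arrays at 1 µM and -0.14, -0.22, -3.86, -0.33, -0.37 and -0.29 on the 6 arrays at 10 µM. The difference of 10 µM minus 1 µM was -0.99 ± 1.12 (SE) with an unadjusted p of 0.379 by limma, which misses the threshold, and most of its size comes from testis 2, where the ratio was -2.10 against -0.18 and -0.33 in testes 1 and 3.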

How the results depend on the processing

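The 7 member probes called at 10 µM became 0 with normexp and loess (55 at an unadjusted p under 0.05), 0 without background correction (53), 0 with no filter on dim probes (23), 0 with the first hybridization only (35), 0 with the labels taken as written (4), 0 with 6 arrays and testis as random block (40) and 0 with slide as a block (25). In these settings no other probe of the array passed either. A strict filter left 1 of 80 members, against 6 of all 2678 probes, and a trend 2 of 106, against 90 of 10021. The error-weighted mean, whose error excludes the spread between testes, called 85 of 106 members and 5775 of all 10021 probes. Shares over all probes for the unadjusted counts in these settings are not given here. Leaving out a testis gave 0 to 21 calls: 0 without testis 1 (39 unadjusted), 21 without testis 2 and 0 without testis 3 (24). With both hybridizations required, an alternative chosen after seeing the data, there were 9 of 99 members, against 187 of all 10008 probes. The Rpl37 tag probe (2.94) lost its call at 1.81 (normexp and loess), 1.63 (no background correction), 2.94 (no filter), 2.41 (first hybridization), 2.94 (random block) and 3.12 (slide), was reversed at -0.52 with labels as written, and lay between 2.57 and 3.62 with a testis left out. Gnb2l1 (-2.59) lost its call at -1.16, -1.13, -2.59 and -2.49 under the first 4 of these, at -2.59 with a strict filter, a trend or the random block and at -2.58 with the slide, was reversed at 0.10 with labels as written, and lay between -2.96 and -2.20 with a testis left out. The NM_031106 probe of Rpl37 passed at 0.22 with the error-weighted mean. The cause was not tested. The 7 probes at 1 µM became 13, all higher, with normexp and loess, 14 and 17 with the first and repeat hybridization alone, 3 with labels as written and 1, lower, with a 2-fold limit (against 0.53% of all probes). Shares over all probes for the other 1 µM settings are not given here. The 1 µM median (-0.13) went to 0.50 (normexp and loess), -0.27 (no background correction), -0.17 (centered), -0.14 (strict filter, repeat only, or both hybridizations required) and 0.00288 (labels as written). The 10 µM median ranged from -1.25 to -0.19 in 16 alternatives. It was -0.19 with normexp and loess and also without background correction, and -0.27 with labels as written. All lay within 1 SD (0.77) of -0.94, but that SD is wide, at 0.27 without testis 2, so this says little of stability. The subunit difference ranged from -0.08 to 0.20, within 1 SD (0.26) of 0.02. That SD also rests on testis 2, and was 0.0076 without it. The dose contrast, with 1 testis at 1 µM, called no member, which says nothing of stability. Signal near background limits the ratios of testis 2. No paired analysis was possible because the doses share 1 replicate number at most.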
